A study of Homo sapiens with 6 samples.

Results

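The 38 genes described here drive a cell from G1 into S phase and copy its DNA. They were listed by name, for their known roles and as genes driven by E2F factors, and taken from a count table of 60663 genes, and 38 of 38 had enough reads to be tested. By role, 11 are licensing genes, which load the helicase onto origins (ORC1, ORC6, CDC6, CDT1, its inhibitor GMNN, and MCM2 to MCM7). Another 17 are fork genes, which start and run the replication fork (MCM10, CDC45, GINS1 to GINS4, PCNA, RFC2 to RFC5, POLA1, PRIM1, POLE, POLD1, FEN1 and LIG1). Nucleotide supply is represented by 4 genes (RRM1, RRM2, TYMS and TK1). The last 6 are E2F factors and chromatin genes of S phase (E2F1, E2F2, UHRF1, SLBP, CHAF1A and CHAF1B). The cells were 5637, an established bladder cancer line, and the study asked how their RNA differs when an m6A eraser is guided to HRAS. All 6 libraries came from cells carrying dCas13b-FTO for 48 h, that is, a Cas13b that binds RNA without cutting it, joined to the demethylase FTO. A control guide, labelled gRNA-control, went to 3 libraries, and a guide against HRAS to 3. The sample titles and genotypes give the construct as dCas13b without FTO, so the fusion rests on the series description and the column names. No label gives the share of cells that took up the constructs, and none says that the 3 libraries of a group are separate cultures. The p-values, standard errors (SE) and intervals below therefore rest on the spread between libraries, which may be technical.

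Replication is licensed in G1, when the origin recognition complex, CDC6 and CDT1 load the MCM2-7 ring as an inactive double hexamer. At the start of S phase CDC45 and GINS join the ring and turn it into the moving helicase, and polymerases, the PCNA clamp and its RFC loader follow. Many of these genes are transcribed at the G1/S boundary by E2F factors, which the retinoblastoma protein holds back until growth signals through RAS and the cyclins release them. The 5637 line is known for having lost a working retinoblastoma protein. In bulk RNA, fewer cells in S phase and less RNA per cell cannot be told apart.

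The genes were listed as replication and E2F-driven genes, so E2F-type words in their promoters are no independent finding. A few promoters are printed here because they show the E2F-type word found in most of the matched members. RefSeq windows on GRCh38.p14, from 250 bases before to 50 bases after each annotated start, were found for 35 members. The words TTTCCCGC, TTTGGCGC, TTTCGCGC and TTTGCCGC were searched on both strands. At least 1 of these words was in 19 of 35 members (54.3%), against 6.21% of 12512 tested genes and 3.99% of all 27305 genes with a window. They were in 7 of 9 licensing genes, 8 of 16 fork genes, 1 of 4 nucleotide supply genes and 3 of 6 E2F and chromatin genes. The word CCAAT, searched likewise, was in 22 of 35 members (62.9%) and 42.2% of tested genes. The word TTTGAA, known from genes of the later G2/M wave, was in 1 of 35 members (2.86%) and 13.8% of tested genes. A match is a description of the letters and not a measured binding site. The windows below run 5′ to 3′ on the gene's strand, with every E2F-type word, on either strand, in capitals. Words on opposite strands overlap in the MCM6 window.
MCM6: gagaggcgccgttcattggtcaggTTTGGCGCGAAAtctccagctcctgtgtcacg
CDT1: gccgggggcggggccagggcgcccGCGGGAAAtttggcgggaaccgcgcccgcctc
PCNA: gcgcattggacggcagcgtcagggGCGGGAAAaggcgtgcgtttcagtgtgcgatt
RFC3: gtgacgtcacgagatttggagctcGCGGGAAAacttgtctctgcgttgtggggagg
TYMS: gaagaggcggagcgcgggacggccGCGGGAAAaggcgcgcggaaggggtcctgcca
E2F1: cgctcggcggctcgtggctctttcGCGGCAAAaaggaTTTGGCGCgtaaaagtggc
E2F2: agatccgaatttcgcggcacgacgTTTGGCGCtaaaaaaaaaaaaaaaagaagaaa
These lie at chr2:135876502-135876557 (minus strand), chr16:88803730-88803785 (plus), chr20:5126650-5126705 (minus), chr13:33818070-33818125 (plus), chr18:657590-657645 (plus), chr20:33686387-33686442 (minus) and chr1:23531244-23531299 (minus). The first capital stands at -90, -35, -59, -55, -39, -33 and -42, where -1 is the base before the start.

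Library totals ran from 24968702 to 32283370 counts, and the members from 347 to 18380 counts per library. HRAS itself did not separate the groups, at 146, 230.4 and 169 CPM (CPM, counts scaled to library size) with the control guide and 199.9, 167 and 184 CPM with the HRAS guide (log2 fold change 0.01 ± 0.15, SE). FTO, which cannot be told from the transfected fusion here, was lower in all 3 HRAS guide libraries than in any control, with a log2 difference of -0.19 ± 0.10, and did not pass (edgeR adjusted p = 1.00). Keratins and the other epithelial markers were all present in every library. Of the markers of other cell types, COL1A1 reached 140 to 210 CPM over the 6 libraries with DCN, PDGFRA and COL1A2 under 1 CPM, and LUM at 1.45 to 2.73 CPM. The fibroblast list as a whole (2 of 5 at 1 CPM or more) summed to 154 to 212 CPM with the control guide and 143 to 186 CPM with the HRAS guide. The immune list (1 of 5) summed to 2.60 to 3.66 and 3.23 to 4.87 CPM, the endothelial list (1 of 4) to 3.80 to 4.93 and 3.72 to 4.12 CPM, and the red cell list (0 of 4) to 0.76 to 1.27 and 0.79 to 1.44 CPM. Their part in the results was not tested. The libraries differed in how their counts depend on GC content, the share of G and C in a transcript. Across all tested genes, Spearman's rho between GC content and a library's deviation from the mean was -0.46, 0.61 and -0.21 in control replicates 1 to 3, and 0.27, -0.49 and 0.06 in HRAS guide replicates 1 to 3. Values are therefore given as measured and, where named so, after a correction of each library for GC content and transcript length. With this correction HRAS differed by 0.07 ± 0.05 and its groups still overlapped (edgeR adjusted p = 0.952). FTO was again lower in every HRAS guide library than in any control, with a log2 difference of -0.20 ± 0.06. It did not pass (edgeR unadjusted p = 0.0108, adjusted p = 0.655).

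RNA of the replication genes did not differ detectably between the guides, in any of the 4 roles. By edgeR, 0 of 38 members passed an adjusted p of 0.05, where 0.0101% of all 19836 tested genes did (2 genes). Before adjustment 0 members were under 0.05 in edgeR (3.34% of tested genes). DESeq2 and limma-voom also called 0 members (0.176% and 0.00504% of their genes), and 0 before adjustment (1.29% and 3.44%). The log2 fold changes, HRAS guide minus control guide, ran from -0.07 for CDT1 to 0.14 for RFC3. They were above 0 in 21 members and below 0 in 17, while 49.5% of tested genes were above 0. The median was 0.01, beside -0.0014 over all tested genes. In no member did the 3 libraries of a group lie wholly above or below those of the other, which 8.81% of tested genes did (4.81% higher and 4.0% lower with the HRAS guide).

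The precision allows a bound on the difference between these libraries, which may not be separate cultures. For 38 of 38 members the 95% interval of the difference lay inside a 1.5-fold change in either direction, and for 30 inside a 1.25-fold change. Of all tested genes 64.6% and 29% lay inside these bounds. Of the 9073 genes with a mean CPM at or above that of the lowest member, 99.1% and 58.1% did. Most genes above that floor are bounded likewise, though a smaller share of them than of the members lay inside 1.25-fold. The set shares only the floor and was not matched in abundance, so nothing particular to the list is read from this. After the GC and length correction 0 of 38 members passed (0.200% of 19489 genes, 0.0103% higher and 0.190% lower), 0 were under an unadjusted p of 0.05 (5.83%), and 38 of 38 intervals lay inside 1.25-fold, and so inside 1.5-fold. Of all genes in that fit 49.3% and 67.9% did, and of the 9067 at or above that floor, 91.9% and 99.7%. The corrected log2 fold changes ran from -0.06 for MCM2 to 0.12 for RFC3, 19 above and 19 below 0, with a median of 0.00031. These intervals are for each gene alone, and do not carry the uncertainty of the correction.

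**Figure D1:**
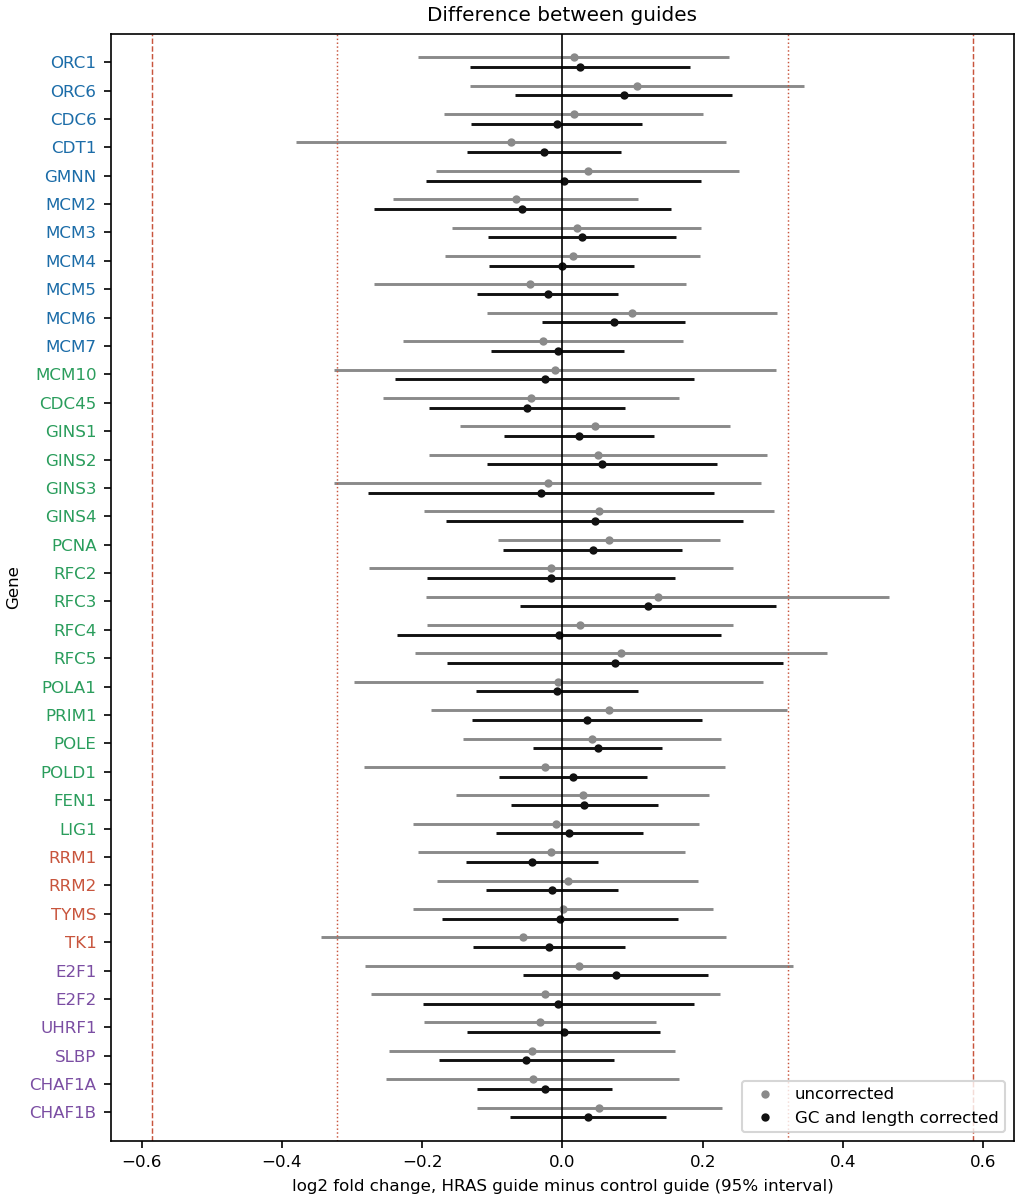
Log2 fold change of each of the 38 genes (rows, names coloured by role: licensing blue, fork green, nucleotide supply red, E2F and chromatin purple), HRAS guide minus control guide, with its 95% interval from edgeR, before (grey) and after (black) the GC and length correction. Every interval crosses 0 and lies within the dashed lines at 1.5-fold, and every black interval lies within the dotted lines at 1.25-fold.

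Licensing genes had a median log2 fold change of 0.02, with 7 above and 4 below 0 (corrected, -0.00088, with 5 and 6). MCM6 (ENSG00000076003, chromosome 2, 135839626 to 135876426, minus strand), a subunit of the MCM2-7 ring, had the smallest p of the group, at 129, 109 and 129 CPM with the control guide and 129, 137 and 127 CPM with the HRAS guide. Control replicate 2 was the low library, and the other 5 lay close together. Its difference was 0.10 ± 0.09 (SE), with an interval of -0.11 to 0.31. ORC6, the smallest origin recognition subunit, stood at 29.6, 26.8 and 33.2 CPM with the control guide and 31.1, 33.1 and 32.2 CPM with the HRAS guide. Control replicate 2 was again the lowest of the 6 libraries, and the difference was 0.11 ± 0.11. MCM2 stood at 161, 148 and 159 CPM with the control guide and 149, 153 and 145 CPM with the HRAS guide (-0.07 ± 0.08), and the groups overlapped because control replicate 2 fell among the HRAS guide libraries. Genes on the opposite strand cover 23.6% of the exon length of MCM2, and without strand their reads cannot be kept apart.

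The other ring subunits did not pass either, and control replicate 2 was at an end of their range in all 4. MCM3 stood at 163, 183 and 175 CPM with the control guide and 179, 172 and 176 CPM with the HRAS guide. MCM4 stood at 360.4, 315 and 361 CPM with the control guide and 338, 364 and 344 CPM with the HRAS guide, with control replicate 2 the lowest of all. MCM5 stood at 124, 158 and 135 CPM with the control guide and 136, 129.8 and 138 CPM with the HRAS guide, with control replicate 2 the highest of all. MCM7, which was also highest there, stood at 519, 642 and 572 CPM with the control guide and 594, 541 and 565 CPM with the HRAS guide. Differences of these 4 subunits ran from -0.05 (MCM5) to 0.02 (MCM3). CDC6, the loader of the ring, differed by 0.02 ± 0.08, and ORC1, the largest origin recognition subunit, by 0.02 ± 0.10, at 27.8, 27.5 and 29.2 CPM with the control guide and 26.0, 29.7 and 29.7 CPM with the HRAS guide. The loading factor CDT1 and its inhibitor GMNN, known to set when licensing is allowed, differed by -0.07 ± 0.14 and 0.04 ± 0.10. Their ratio per kilobase was 1.02 ± 0.24 with the control guide and 0.94 ± 0.07 with the HRAS guide (SD, n = 3), and 0.98 ± 0.09 and 0.96 ± 0.08 after the correction. The ratio was highest in control replicate 2, at 1.29 before the correction. Its size depends on the transcript length used: per kilobase of all annotated exons, the mean levels were 21.8 CPM for CDT1 and 11.7 CPM for GMNN.

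Fork genes had a median of 0.03, with 10 above and 7 below 0 (corrected, 0.02, with 11 and 6). PCNA (ENSG00000132646, chromosome 20, 5114953 to 5126626, minus strand), the sliding clamp, had the smallest p, at 296, 295 and 309 CPM with the control guide and 311, 323 and 308 CPM with the HRAS guide. Of the HRAS guide libraries 2 lay above all controls, and the lowest of them lay just under control replicate 3. It was the only member whose difference (0.07 ± 0.07) was larger than the range within the control group. After the correction the PCNA difference was 0.04 ± 0.06, with the control group wider, at 24.4 against 7.65 CPM (SD). RFC3 (ENSG00000133119, chromosome 13, 33818049 to 33966558, plus strand), a subunit of the clamp loader, had the largest difference of all members, 0.14 ± 0.15 with an interval of -0.19 to 0.47. It stood at 31.7, 21.6 and 30.3 CPM with the control guide and 30.0, 33.7 and 28.1 CPM with the HRAS guide, so control replicate 2 alone lay below the rest. RFC5, its partner in the loader, showed the same low library at 37.7, 28.4 and 37.4 CPM with the control guide and 33.7, 40.5 and 35.5 CPM with the HRAS guide (0.08 ± 0.13). RFC2, another loader subunit, was highest in that library, at 65.3, 86.9 and 78.1 CPM with the control guide and 81.6, 70.7 and 75.4 CPM with the HRAS guide. RFC4 stood at 29.9, 33.0 and 31.4 CPM with the control guide and 33.4, 29.8 and 32.7 CPM with the HRAS guide, with its groups overlapping throughout. The differences of RFC2 and RFC4 between guides were -0.02 ± 0.12 and 0.02 ± 0.10.

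GINS, the 4-subunit partner of the helicase, was expressed unevenly, and none of its subunits passed. GINS1 stood at 80.7, 73.1 and 78.6 CPM with the control guide and 77.7, 82.9 and 79.4 CPM with the HRAS guide. GINS2 stood at 22.3, 27.5 and 26.2 CPM with the control guide and 26.4, 26.9 and 25.4 CPM with the HRAS guide, with control replicate 1 the low library. The GINS3 values were 16.9, 13.0 and 17.6 CPM with the control guide and 14.0, 16.4 and 16.3 CPM with the HRAS guide, with control replicate 2 and HRAS guide replicate 1 low. GINS4 stood at 22.0, 18.0 and 19.2 CPM with the control guide and 19.9, 21.8 and 19.6 CPM with the HRAS guide. The 4 differences ran from -0.02 to 0.05, each smaller than its SE. CDC45, which completes the helicase, differed by -0.04 ± 0.09, and MCM10, needed to start it, by -0.01 ± 0.14. The polymerase subunits POLA1 and PRIM1 of the primase complex, POLE of the leading strand and POLD1 of the lagging strand differed by -0.01 ± 0.13, 0.07 ± 0.11, 0.04 ± 0.08 and -0.03 ± 0.12. FEN1 and LIG1, which trim and seal Okazaki fragments, differed by 0.03 ± 0.08 and -0.01 ± 0.09. POLE, whose libraries overlapped as measured, lay higher in all 3 HRAS guide libraries after the correction, as MCM6 did, while RRM1 lay lower in all 3. That is 3 of 38 members with separate groups, against 12.3% of all genes in the corrected data (5.99% higher and 6.33% lower), and none of the 3 was under an unadjusted p of 0.05.

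Nucleotide supply genes had a median of -0.01, with 2 above and 2 below 0 (corrected, -0.02, with 0 and 4). TK1, thymidine kinase of the salvage route, stood at 164, 234 and 185 CPM with the control guide and 195, 167 and 199 CPM with the HRAS guide (-0.06 ± 0.13). Control replicate 2 was far the highest, and the 3 HRAS guide libraries lay between the 3 control values. RRM1, the large subunit of ribonucleotide reductase, stood at 258, 221 and 252 CPM with the control guide and 232, 253 and 238 CPM with the HRAS guide (-0.02 ± 0.09). RRM2, its S phase subunit, stood at 172, 151 and 168 CPM with the control guide and 159, 171 and 164 CPM with the HRAS guide (0.01 ± 0.08). The ratio of RRM1 to RRM2 per kilobase was 1.66 ± 0.02 with the control guide and 1.64 ± 0.02 with the HRAS guide (SD, n = 3), the steadiest of the subunit pairs compared. TYMS, thymidylate synthase, stood at 51.0, 45.1 and 47.3 CPM with the control guide and 44.8, 49.4 and 49.3 CPM with the HRAS guide (0.001 ± 0.10). Genes on the opposite strand, ENOSF1 and TYMSOS, cover 46.6% of its exon length, so its level is uncertain without strand. Other genes also share over 20% of the exon length of MCM2, GINS4, PRIM1 and RRM2.

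E2F and chromatin genes had a median of -0.03, with 2 above and 4 below 0 (corrected, -0.0021, with 3 and 3). CHAF1B (ENSG00000159259, chromosome 21, 36385378 to 36419015, plus strand), a subunit of the histone chaperone that works behind the fork, had the smallest p, at 107, 106 and 111 CPM with the control guide and 114, 110.4 and 111 CPM with the HRAS guide (0.05 ± 0.08). Its libraries were among the tightest of the list. SLBP, which binds the stem-loop of histone mRNAs, stood at 65.1, 57.1 and 62.3 CPM with the control guide and 60.0, 61.2 and 57.8 CPM with the HRAS guide (-0.04 ± 0.09). CHAF1A, the large chaperone subunit, stood at 125, 151 and 134 CPM with the control guide and 137, 125 and 137 CPM with the HRAS guide (-0.04 ± 0.09), with control replicate 2 the highest library. UHRF1, which brings the maintenance methyltransferase to new DNA, stood at 178, 172 and 169.8 CPM with the control guide and 168, 170.4 and 170.5 CPM with the HRAS guide (-0.03 ± 0.07). E2F1, the activator itself, averaged 87.1 ± 16.0 against 88.5 ± 9.48 CPM (SD, n = 3), a difference of 0.02 ± 0.14. Its close relative E2F2 stood at 17.9, 21.1 and 18.0 CPM with the control guide and 18.7, 17.3 and 19.9 CPM with the HRAS guide (-0.02 ± 0.11). Neither activator differed by more than its SE.

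**Figure D2:**
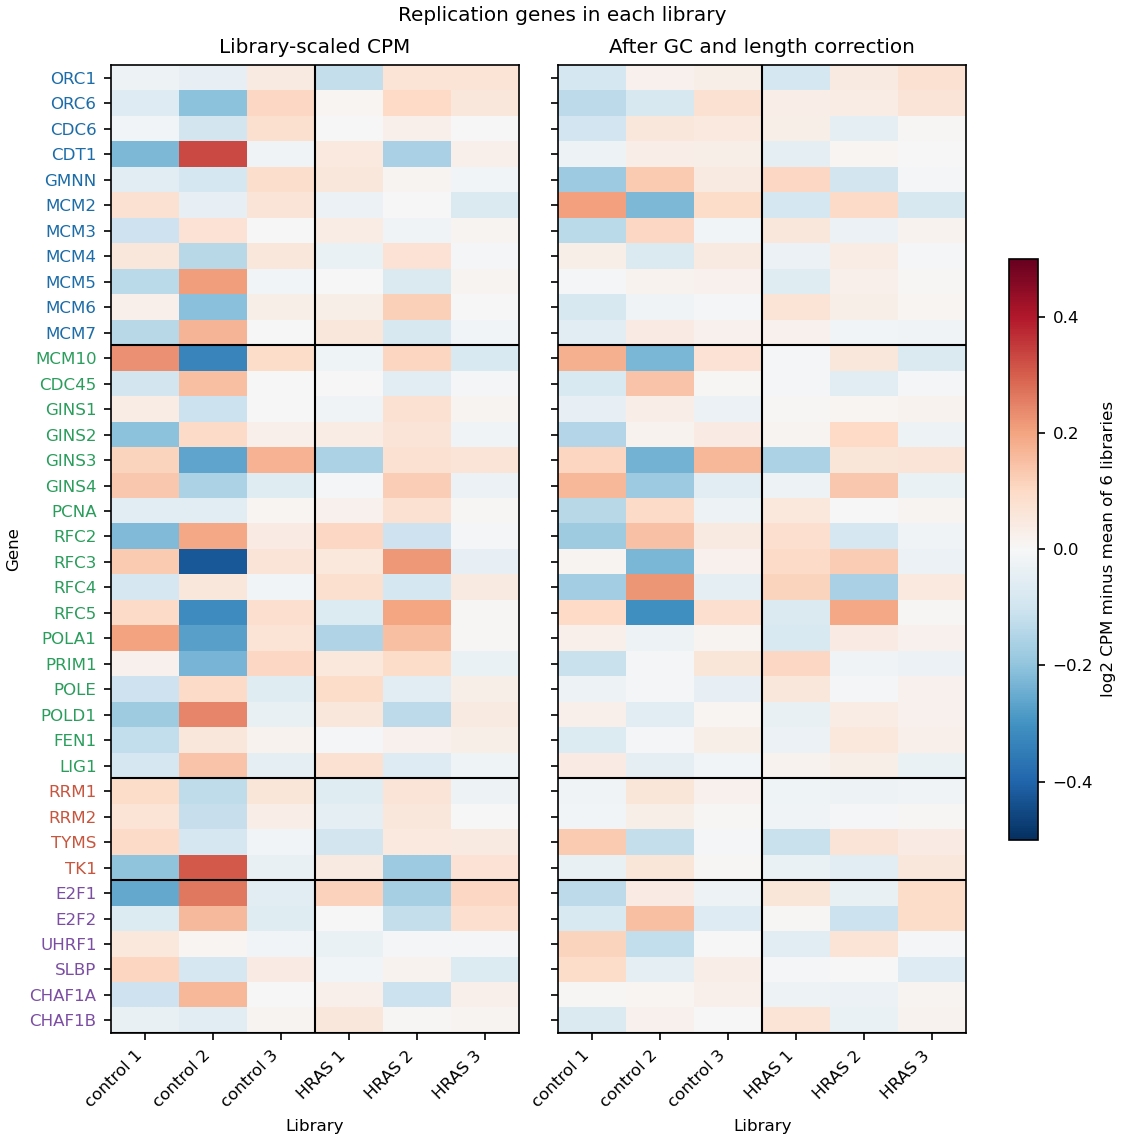
Log2 CPM of each gene (rows, in role order, names coloured by role as licensing blue, fork green, nucleotide supply red, E2F and chromatin purple) in each library (columns) minus its mean over the 6 libraries, before (left) and after (right) the GC and length correction, red for higher and blue for lower. Before the correction control replicate 2 stands apart in both directions, from -0.42 (RFC3) to 0.33 (CDT1), and no column boundary separates the guides.

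Summed over the 38 genes, CPM were 4404, 4662 and 4582 in control replicates 1 to 3 and 4597, 4520.1 and 4561 in HRAS guide replicates 1 to 3. The means of 4549 ± 132 and 4559 ± 38.6 CPM (SD, n = 3) differed by less than the spread within either group. Licensing genes summed to 1782 ± 64.2 and 1775 ± 18.2 CPM, and fork genes to 1532 ± 43.8 and 1564 ± 13.3 CPM. Nucleotide supply genes summed to 649 ± 3.82 and 640.2 ± 9.69 CPM, and E2F and chromatin genes to 586 ± 23.2 and 581 ± 16.8 CPM (SD, n = 3 each). The groups overlapped in every role, for nucleotide supply through HRAS guide replicate 3 alone, at 650.1 CPM.

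The spread among the control libraries was set beside the difference between guides. The range over the 3 control libraries was larger than that difference in 37 of 38 members, and in 60 of 64 other genes of the pathway. In the members the median range was 0.23 (log2) and the median absolute difference 0.03. Single libraries spread more than means of 3, so these counts are largely fixed in advance and show nothing particular to the members. Among the HRAS guide libraries the median range was 0.13. The difference between control replicates 2 and 1 tended to rise with GC content. The control range itself did not rise with it in every member, at 0.07 for UHRF1 (58.1% GC) and 0.56 for MCM10 (47.2%). Between control replicates 1 and 2, CDT1 went from 61.6 to 90.5 CPM, E2F1 from 73.0 to 104.5 CPM and TK1 from 164 to 234 CPM. Their GC contents of 65.3%, 62.5% and 61.5% are among the 4 highest of the list, whose members run from 40.6% to 65.3%. At the low end POLA1 (42.8%) went from 89.1 to 64.2 CPM and RFC3 (43.3%) from 31.7 to 21.6 CPM. These 5 genes were chosen for display after their values were seen. Of the 11 members above 55% GC, 9 were higher in control replicate 2, with a median of 0.31 (log2), and of the 7 below 45%, 1 was, with a median of -0.24. Over the 38 members Spearman's rho between GC content and that difference was 0.72, a description of genes that share the same 2 libraries.

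The small differences between guides were also set beside GC content. Spearman's rho between GC content and the log2 fold change was -0.57 over the 38 members before the correction and -0.15 after it. These points share the 6 libraries, control replicates 1 and 2 among them. The correction removes each library's trend with GC content, so the weaker value after it is largely built in. The cause of the trend was not tested. The correction lowered the control range in 28 members and raised it in 10. It took CDT1 from a control SD of 14.7 to 1.58 CPM, but MCM2 from 6.77 to 23.2 CPM and UHRF1 from 4.02 to 13.9 CPM. After it the interval was -0.14 to 0.08 for CDT1, -0.06 to 0.21 for E2F1 and -0.27 to 0.15 for MCM2.

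**Figure D3:**
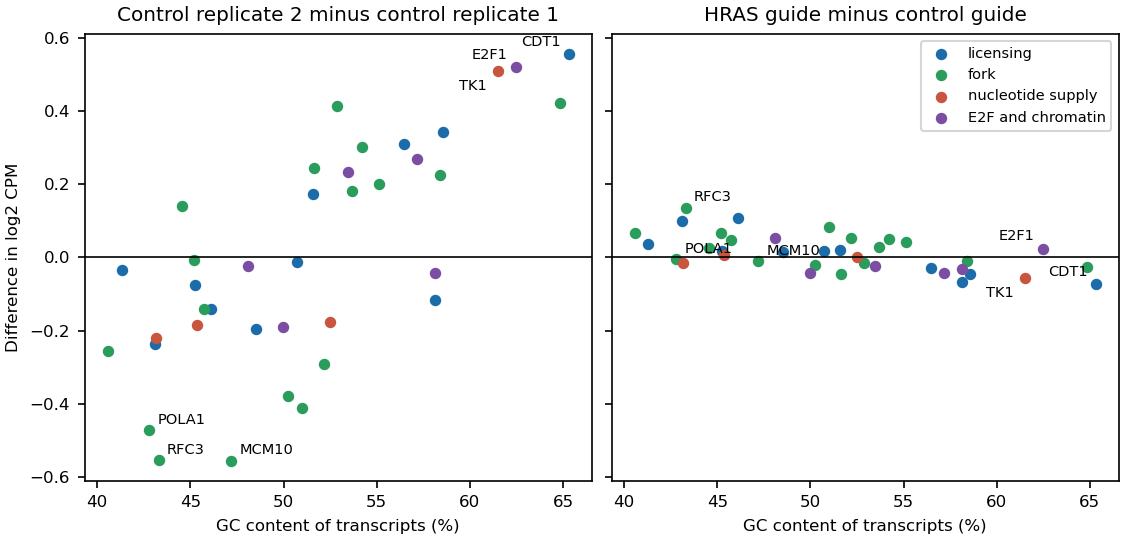
GC content of each gene's transcripts (x axis, %) against the difference in log2 CPM (y axis) between control replicates 2 and 1 (left) and between the HRAS guide and the control guide (right), coloured by role. Within the control group the points span -0.56 (MCM10, 47.2% GC) to 0.56 (CDT1, 65.3%) and tend to rise with GC content. Between the guides they stay within -0.07 to 0.14.

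The libraries were also compared within sets of the same sign of GC trend. Each set has a single library of 1 guide, and HRAS guide replicate 3 joined the positive set on a rho of 0.06, so the medians are given as values with no reading of a shift. In the set of negative trend (control replicates 1 and 3, HRAS guide replicate 2) the median difference was 0.00070, with 19 members above and 19 below 0. In the set of positive trend (control replicate 2, HRAS guide replicates 1 and 3) it was 0.03, with 21 above and 17 below 0, beside 0.02 over all genes. With this set as a covariate in edgeR 0 members passed (0.408% of genes), and 5 were under an unadjusted p of 0.05 (11.3% of genes). These were RFC3 (0.27 ± 0.09), MCM6 (0.16 ± 0.06) and RFC5 (0.19 ± 0.08) on the higher side and TK1 (-0.16 ± 0.07) and CDT1 (-0.17 ± 0.08) on the lower. The 3 higher genes have GC contents of 43.1% to 51.0% and the 2 lower ones of 61.5% and 65.3%.

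Set per length, the members spanned a 62.3-fold range in level. PCNA led at 226 CPM per kilobase of its principal transcript, with 217 to 238 over the 6 libraries, and MCM7 followed at 193 (175 to 217). TK1 (117), MCM4 (82.9), RRM1 (78.8) and FEN1 (69.3) came next. E2F2 was the lowest at 3.63 (3.34 to 4.06), below GINS4 (5.23) and GINS3 (6.89). Of the 37 pairs of neighbours in this order, 30 overlapped in their ranges over the libraries, so most ranks in the middle are not distinct. The steps from MCM7 to TK1, TK1 to MCM4, FEN1 to MCM3, UHRF1 to RRM2, TYMS to CHAF1B, ORC1 to GINS3 and GINS4 to E2F2 were the 7 that did not overlap. With the merged length of all annotated exons in place of the principal transcript, the order correlated at a Spearman's rho of 0.93, PCNA, MCM7 and TK1 stayed first, and GINS3 came last.

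Levels were uneven within complexes, and some orders depended on the length used. Per kilobase of principal transcript, among ring subunits MCM7 stood at 193 CPM per kilobase, MCM4 at 82.9, MCM3 at 54.5, MCM2 at 42.1, MCM5 at 38.7 and MCM6 at 33.9. Per kilobase of all annotated exons MCM7 was still the highest, at 130.5 CPM, but MCM5 was the lowest, at 18.7 CPM against 30.8 CPM for MCM6. By principal transcript MCM7 exceeded MCM6 by 6.04 ± 1.23-fold with the control guide and 5.47 ± 0.45-fold with the HRAS guide (SD, n = 3). Within GINS, GINS1 exceeded GINS4 by 4.66 ± 0.28-fold and 4.63 ± 0.14-fold. Within the clamp loader RFC2 (45.02 CPM per kilobase) stood above RFC4 (21.9), RFC5 (21.5) and RFC3 (12.2). By all annotated exons RFC2 was again above them (34.5 CPM), and RFC3, RFC4 and RFC5 lay between 10.2 and 10.9 CPM. ORC6 exceeded ORC1 by 2.05 ± 0.16-fold and 2.20 ± 0.11-fold by principal transcript, but by all annotated exons the order turned, with 7.19 CPM for ORC6 and 8.96 CPM for ORC1. The order of GINS3 and GINS4 turned likewise. The ratios of MCM7 to MCM6, GINS1 to GINS4 and ORC6 to ORC1 by principal transcript differed between guides by less than their SD in the control group. After the correction the ratio of MCM7 to MCM6 was 5.86 ± 0.07 with the control guide and 5.55 ± 0.04 with the HRAS guide (SD, n = 3). Its groups lay apart, alone among the ratios computed, and MCM6 by itself was already apart in the corrected data. The ratio of RRM1 to RRM2, as measured above, differed by slightly more than its control SD. The ratios themselves were not tested. Levels across genes also depend on GC content and on the reads a gene shares with others, and their part in these ratios was not tested.

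**Figure D4:**
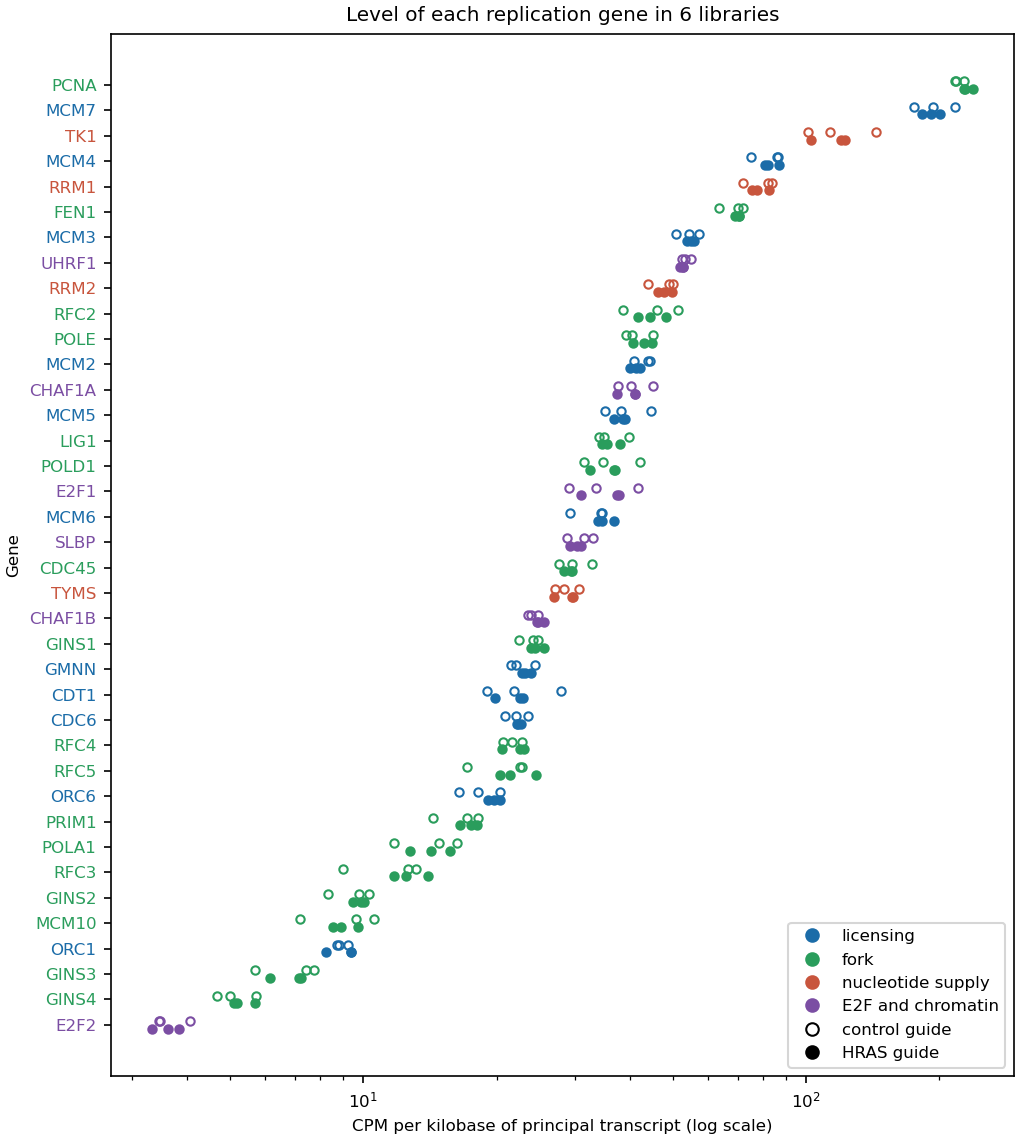
CPM per kilobase of principal transcript (log axis) of each gene (rows, ordered by mean, coloured by role) in the 3 control guide libraries (open circles) and the 3 HRAS guide libraries (filled circles). PCNA and MCM7 stand at the top near 226 and 193, E2F2 at the bottom near 3.63, and the open and filled circles overlap in every row.

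No difference was called among the other genes of the pathway either. Of 64 of them, 15 of licensing and firing, 20 of the fork, 11 of nucleotide supply and 18 of E2F and chromatin, all were tested and 0 passed in edgeR, with or without the correction, and 0 in DESeq2 and limma-voom. Before adjustment 1 of them had a p under 0.05 (3.34% of all tested genes did), and 2 did in the corrected data (5.83%). Their median log2 fold change was 0.0070, with 35 above and 29 below 0. TICRR, a factor needed for origin firing, had the smallest p, at 98.9, 97.2 and 93.4 CPM with the control guide and 82.8, 84.2 and 86.2 CPM with the HRAS guide. All 3 HRAS guide libraries lay below all 3 controls, and the difference was -0.19 ± 0.08 (edgeR adjusted p = 1.00), or -0.18 ± 0.05 after the correction (adjusted p = 0.564). Separate groups were seen in 3 of the 64 as measured, all lower (8.81% of all tested genes, 4.0% lower), and in 6 in the corrected data, 1 higher and 5 lower (12.3%). DBF4B, an activator of the CDC7 kinase, differed by -0.08 ± 0.09. Among other fork genes POLA2, the partner of POLA1, stood at 0.22 ± 0.14 and POLD4, a small subunit of the lagging-strand polymerase, at -0.18 ± 0.14. Other genes on the same strand share 35.1% of the exon length of POLA2 and 21.3% of that of POLD4. In nucleotide supply DUT, which clears dUTP, stood at 0.10 ± 0.09 and SHMT1, of folate metabolism, at -0.07 ± 0.09. Of the E2F and chromatin genes, the pocket protein gene RBL1 stood at 0.14 ± 0.12 and the helicase gene HELLS at 0.10 ± 0.12.

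Among the E2F genes, E2F3 and RB1 are given for their levels, chosen after these were seen. E2F3 stood at 97.7 CPM per kilobase, against 35.1 for E2F1 and 3.63 for E2F2, and RB1, which encodes the retinoblastoma protein, at 1.44. The libraries of E2F3 held 535, 398 and 488 CPM with the control guide and 424, 494 and 445 CPM with the HRAS guide. Control replicate 2 was again the lowest, and the E2F3 difference was -0.06 ± 0.11. In the corrected data every HRAS guide library lay below every control for E2F3, with a difference of -0.06 ± 0.04 (edgeR adjusted p = 0.944). RB1 differed by 0.13 ± 0.18. Under both guides E2F3 was the most abundant of these 4 genes per kilobase and RB1 the least.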

How the data were processed

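The authors deposited raw counts per gene as whole numbers, 60664 rows keyed by Ensembl identifier, of which 1 blank row was left out. HISAT2, StringTie and DESeq2 with hg38 appear in the submitters' processing notes, with no version or role. What counted the reads, against which annotation and with which strand setting, is not given in the sources used here. Columns were matched to libraries by guide and replicate number. GENCODE 29 on GRCh38 supplied coordinates, GC content and lengths, and 60462 identifiers had a symbol.

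After filterByExpr 19836 genes were left, scaled by TMM. edgeR 4.0.16 (R 4.3.3) compared the groups by its quasi-likelihood test, two-sided, with group as the only term and Benjamini-Hochberg adjustment over all tested genes at 0.05. Each SE came from the F statistic, and intervals are at 95%. For the correction, a library's deviation from the mean log2 CPM of all libraries (prior count 2) was fitted by splines of GC content (5 degrees of freedom) and of transcript length on a log10 scale (4), and the fit entered edgeR as an offset for 19489 genes. Alternatives were DESeq2 1.42.0, limma-voom (limma 3.58.1), other scalings and filters, a replicate block, a GC trend covariate and leaving out each library.

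Scripts were tested on simulated data. The members, roles, other lists and alternatives were chosen with earlier results of these data known. HRAS and FTO were named whatever their values, and library values were given for the members of smallest p and of highest and lowest level in each role and for subunits of complexes. Of each other list the 2 genes of smallest p were named. No pair of libraries agreed within sampling noise (chi-square per degree of freedom 3.19 to 43.6).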

Additional observations from a re-analysis of the deposited data

How the results depend on the processing

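The count of members called was 0 in all 16 alternatives, as was that of the 64 other replication genes. The lowest adjusted p of a member was 0.319, with the GC trend covariate. Single members that did not pass changed sign in 1 to 18 of 38 cases per alternative, most often without control replicate 2 (18). The median over all members stayed between 0.00030 and 0.03. That of fork genes went from 0.0286 to 0.0738 with the GC trend covariate, and that of E2F and chromatin genes, -0.0283, ran from -0.0478 to 0.0352 with a library left out, highest without control replicate 2, with -0.0566 under the GC trend covariate. The nucleotide supply median, -0.0076, was the least stable in sign, from -0.0422 without control replicate 2 to 0.0361 with the GC trend covariate. The 5 medians (all members and the 4 roles) changed sign in 8 of 80 cases, 4 of them in nucleotide supply.

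The number of genes called in the whole table moved more. It was 2, against 25 with DESeq2, 57 with no filter, 39 with the GC and length correction, 81 with the GC trend covariate, and 1 each with limma-voom, DESeq2 size factors or a filter of 1 CPM in 3 libraries. With a library left out it ran from 1 to 24, with 4 without control replicate 1 and 24 without control replicate 2. The replicate block called 1 gene, and 5 with the correction. Same-numbered libraries deviated from their group means with correlations of -0.19, -0.29 and -0.06. The GC trends of the libraries may enter these values, so they cannot show whether the numbers pair the libraries. The block changed no member's call. The causes were not tested. RNASEH2A had the lowest level of the other replication genes, at 0.90 CPM, and THSD8, on the same strand, shares 30.8% of its exon length. The reason for its low level was not tested.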
